A study of Mus musculus with 24 samples.

Results

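Unstimulated splenic B cells of mice whose B cells lack NFATc1 were compared with those of control mice. The 6 arrays were chosen by their labels, which name the genotype and 0 h of stimulation, and they are 6 of the 24 arrays of the series. The 3 arrays labelled KO hold B cells in which Nfatc1, with exon 3 flanked by loxP sites, was deleted by a Cre recombinase that is expressed from the Cd79a (mb-1) locus and therefore acts from early B lineage stages onwards. The 3 arrays labelled WT hold B cells of control mice, and the labels do not say whether these mice carried the Cre or the loxP sites. The cells of all 6 arrays came from spleens of C57BL/6 mice, with an age of 6 to 8 weeks given, and had received no anti-IgM, the antibody that crosslinks the B cell receptor. B cells were enriched with magnetic beads and frozen before RNA was extracted, and each biological replicate was hybridised as biotin-labelled cRNA to 1 Affymetrix array. The other 18 arrays hold cells of the same genotypes after 3, 8 or 16 h of anti-IgM. They enter here as part of the estimate of spread and as values from arrays other than those at 0 h.

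NFATc1 is a transcription factor that is held in the cytoplasm by phosphorylation. When the B cell receptor is engaged, calcium enters the cell, the phosphatase calcineurin removes the phosphates, and NFATc1 moves to the nucleus, where it binds DNA through a GGAAA core, often beside AP-1. Resting B cells keep most NFAT in the cytoplasm, so the comparison before stimulation asks which genes already differ between the genotypes without a receptor signal from the added antibody.

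Of 14318 genes tested, 5 passed at a Benjamini-Hochberg adjusted p under 0.05 in limma, which is 0.0349% of the genes. Slc66a2, Cenps and Ifi44l were higher in KO cells (0.021% of the genes tested) and Ephx1 and Lonrf3 were lower (0.014%). The count depended on the model and the arrays: limma's eBayes without an intensity trend called 0 genes, with 518 at an unadjusted p under 0.05, and a fit without the male-type arrays described with the array quality called 3 genes, with 0 of these 5 among them. Values are log2 of the deposited MAS5 signals, and differences are KO minus WT on that scale. The promoters of 3 of these genes, and that of Egr2, the lower gene nearest to the threshold among those measured above the filter level in both groups, are printed here so that the NFAT core can be looked for in them. They come from RefSeq (GRCm38.p6), each running from 250 bases before to 50 bases after an annotated start, read 5′ to 3′ on the gene's strand, with GGAAA or its reverse complement TTTCC in capitals.
Cenps, chr4:149137551-149137850, minus strand: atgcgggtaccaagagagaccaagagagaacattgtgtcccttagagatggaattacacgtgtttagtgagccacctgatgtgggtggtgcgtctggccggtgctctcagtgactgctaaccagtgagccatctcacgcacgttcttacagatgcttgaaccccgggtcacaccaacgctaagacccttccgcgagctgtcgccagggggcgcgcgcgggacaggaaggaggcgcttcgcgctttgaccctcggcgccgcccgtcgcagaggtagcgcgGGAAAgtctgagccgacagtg
Ephx1, chr1:181017520-181017819, minus strand: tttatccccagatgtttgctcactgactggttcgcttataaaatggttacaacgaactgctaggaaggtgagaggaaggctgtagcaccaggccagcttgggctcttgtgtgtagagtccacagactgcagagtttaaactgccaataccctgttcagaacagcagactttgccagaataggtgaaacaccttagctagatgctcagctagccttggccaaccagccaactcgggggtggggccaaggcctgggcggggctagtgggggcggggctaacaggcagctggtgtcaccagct
Ifi44l, chr3:151762842-151763141, minus strand: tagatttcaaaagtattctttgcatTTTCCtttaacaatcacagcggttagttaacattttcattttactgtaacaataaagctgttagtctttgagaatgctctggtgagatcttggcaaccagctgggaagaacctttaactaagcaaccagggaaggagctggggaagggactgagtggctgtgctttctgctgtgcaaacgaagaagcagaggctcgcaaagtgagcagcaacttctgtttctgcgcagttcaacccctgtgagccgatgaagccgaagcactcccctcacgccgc
Egr2, chr10:67537316-67537615, plus strand: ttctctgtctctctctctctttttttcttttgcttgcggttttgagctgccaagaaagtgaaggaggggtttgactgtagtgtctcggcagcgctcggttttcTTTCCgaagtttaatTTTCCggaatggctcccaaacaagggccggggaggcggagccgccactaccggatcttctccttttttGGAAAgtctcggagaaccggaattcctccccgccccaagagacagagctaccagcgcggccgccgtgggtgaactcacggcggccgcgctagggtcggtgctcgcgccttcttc
The window of Lonrf3, whose signals at 0 h were mostly under the level used to filter low signals, is not printed and held 1 match on the other strand, and that of Slc66a2 is not shown here. The window of Cenps held 1 match on the gene's strand, that of Ifi44l 1 on the other strand, and that of Ephx1 none. For Egr2, RefSeq gives 5 starts, of which 4 windows held the core, and the window with the most matches is shown, a choice made after the matches were seen, with 1 on the gene's strand and 2 on the other. The core occurred on either strand in 61.3% of all 32851 promoter windows, so its presence in these windows is common. A match is a string of letters and says nothing about binding.

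The 6 arrays were of like quality by the measures available. Their log2 signals correlated between 0.935 and 0.950 across probe sets, and the 40th percentile of an array, the level used to filter low signals, lay between 5.66 and 5.98 with a mean of 5.77. The pan-B markers tested, such as Ms4a1 (CD20), Cd79b and Cd74, were among the bright genes, and the summed signal of 8 of them was 120100 to 143000 in KO and 128900 to 144900 in WT arrays. In comparison, the 12 T cell markers with a probe set summed to 643 to 1313 in KO and 597 to 1034 in WT arrays. WT replicate 2 had a mean log2 signal of 9.07 over the Y-linked probe sets and 4.59 over those of Xist, while the other 5 arrays had 2.11 to 2.77 and 12.1 to 12.6, so the WT group holds 1 male-type and 2 female-type samples. The arrays of WT replicate 2 at 3, 8 and 16 h were male-type as well, with Y-linked means of 8.62, 8.62 and 8.61. KO replicate 1 stood apart in immediate early genes and KO replicate 2 in neutrophil markers, as described with those genes. The arrays are of bulk cells, in which fewer cells of a type and less RNA per cell cannot be told apart.

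The targeted gene was measured by 5 probe sets. The brightest had log2 signals of 12.06, 12.30 and 12.13 in the arrays labelled KO and 11.79, 11.96 and 12.01 in those labelled WT. The KO arrays were all slightly higher, by 0.24 with a standard error (SE) of 0.13 from limma, and the gene did not pass the test. The other 4 probe sets differed by 0.05, 0.01, -0.02 and 0.26, and none passed. After anti-IgM the brightest probe set was higher in KO arrays by 0.60, 0.72 and 0.66 at 3, 8 and 16 h. Of these the differences at 8 h (limma adjusted p 0.0140) and 16 h (limma adjusted p 0.0107) passed. Their position on the transcript is not given in the sources used here. A probe set outside the deleted exon 3 checks nothing, so the RNA signal does not test the labels. Among 18 tested genes for NFAT proteins, calcineurin subunits and their regulators, none passed and none had an unadjusted p under 0.05, a level reached by 3.49% of all genes. The median difference was 0.01, beside 0.01 for all genes. The family member Nfatc2 differed by 0.14 and Nfatc3 by 0.03. Rcan1, a calcineurin inhibitor whose own transcription responds to NFAT, differed by 0.11.

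Slc66a2 codes for a membrane protein of the PQ-loop family and lies on the same chromosome as Nfatc1, as the third gene before it in RefSeq order. Its log2 signals were 10.80, 10.86 and 10.45 in KO and 9.64, 9.57 and 10.003 in WT arrays. All KO arrays lay above all WT arrays. The difference was 0.96 (SE 0.16, limma adjusted p 0.0258), a 1.95-fold higher signal. A second probe set of the gene differed by 1.05 and did not pass among all probe sets (limma adjusted p 0.0822). Another, above the filter level in 1 KO array and 0 WT arrays, differed by -0.47 and did not pass. The remaining one did not pass the filter. After anti-IgM the difference of Slc66a2 was 0.17, 0.28 and 0.10 at 3, 8 and 16 h, none of which passed. The change in difference from 0 h was 0.78, which did not pass either (limma adjusted p 0.359). Of the 10 tested genes on each side of Nfatc1, 10 of 20 were higher in KO arrays and the median difference was -0.003. Slc66a2 was the 1 neighbour that passed. Zfp236, a zinc finger gene on the other side, differed by -0.34 and was the other neighbour with an unadjusted p under 0.05.

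Cenps codes for CENP-S, a histone-fold protein of the inner kinetochore that also serves the Fanconi anaemia pathway of DNA repair. KO arrays had log2 signals of 8.84, 8.71 and 8.46, and WT arrays 7.65, 7.35 and 7.13. The groups did not overlap, and the lowest KO array exceeded the highest WT array. The gene was higher in KO arrays by 1.29 (SE 0.22, limma adjusted p 0.0258), or 2.45-fold. The difference of Cenps was 1.01, 0.78 and 0.07 at 3, 8 and 16 h, and its mean over these times passed (0.62, limma adjusted p 0.0102). It was the 1 gene that passed both at 0 h and over the stimulated times. Other kinetochore genes were not called: of 24 tested, 14 were higher, with a median of 0.06, and Cenps was the 1 that passed. Cenpk, a subunit of the constitutive centromere network, differed by 0.33 and Cenpo by 0.27, both with KO arrays above WT arrays. Neither reached an unadjusted p under 0.05. With Cenps, 3 of the 24 had all KO arrays above all WT arrays and 0 had them below, beside 4.25% and 3.56% of all genes.

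Ephx1 codes for microsomal epoxide hydrolase, which opens epoxides of foreign and endogenous compounds and is a target of the oxidative stress factor NRF2. Its log2 signals were 10.52, 10.61 and 11.10 in KO and 11.78, 11.76 and 11.85 in WT arrays. The WT arrays were close to each other and all above the KO arrays. The gene was lower in KO arrays by 1.05 on the log2 scale (SE 0.18, limma adjusted p 0.0258), a 2.07-fold lower signal. At 3, 8 and 16 h the difference of Ephx1 was -0.68, -0.27 and 0.30, none passing. Among 18 tested detoxification genes and targets of NRF2 and the aryl hydrocarbon receptor, Ephx1 was the 1 that passed, with 10 members higher and 8 lower and a median of 0.03. Arnt, the dimerisation partner of the aryl hydrocarbon receptor, had 8.47, 7.46 and 8.10 in KO and 9.35, 9.55 and 9.95 in WT arrays. Its groups did not overlap, and its difference of -1.60 (SE 0.38) did not pass (limma adjusted p 0.224). Ahr itself differed by -0.59 and Nqo1, an NRF2-driven quinone reductase that was above the filter level in 1 of the 6 arrays, by 1.98, neither passing.

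Ifi44l belongs to the interferon-induced genes. Its log2 signals were 9.06, 9.04 and 8.09 in KO arrays and 2.07, 2.87 and 1.32 in WT arrays. The WT values were all under the level that filtered low signals and the KO values were well over it, so the measured difference of 6.64 (SE 1.22, limma adjusted p 0.0443) is not a ratio of 2 measured levels. With signals under the level raised to it, the KO arrays were higher by at least 2.92 on the log2 scale (limma adjusted p 0.0240). A second probe set, with its WT arrays also under the level, differed by 5.09 and did not pass among all probe sets (limma adjusted p 0.507). The remaining one did not pass the filter. By the brightest probe set the difference of Ifi44l was 0.39, 5.03 and 0.98 at 3, 8 and 16 h, with none passing. The second probe set differed by 3.22, 5.62 and 2.12, with none passing at a single time. Its mean over these times passed among all probe sets (3.65, limma adjusted p 0.0150). Its WT means of 2.09, 1.82 and 1.71 at these times were under the filter level. Of 23 interferon-stimulated genes tested, Ifi44l alone passed, 13 were higher and 10 lower, and the median was 0.02. Usp18, which restrains interferon signalling, differed by 0.34, Irf7 by -0.16 and Mx1 by -0.24. Oasl2, an oligoadenylate synthetase-like gene, had 1.26, 3.09 and 6.32 in KO and 5.15, 8.33 and 6.72 in WT arrays and did not pass.

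Lonrf3, a gene for a protein with LON and RING finger domains, had log2 signals of 1.43, 3.00 and 4.10 in KO and 5.20, 6.44 and 5.45 in WT arrays. Only 1 of the 6 arrays, WT replicate 2, lay above the filter level of its own array. The measured difference was -2.85 (SE 0.48, limma adjusted p 0.0258), but with low signals raised to the level it was -0.24 and did not pass. A second probe set, also above the filter level only in WT replicate 2, differed by -0.99 with overlapping groups and did not pass. At 3 h the gene was well measured in both genotypes, at 9.36 ± 0.35 (SD, n = 3) in KO and 9.50 ± 0.23 (SD, n = 3) in WT arrays, and the difference there was -0.14.

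**Figure D1:**
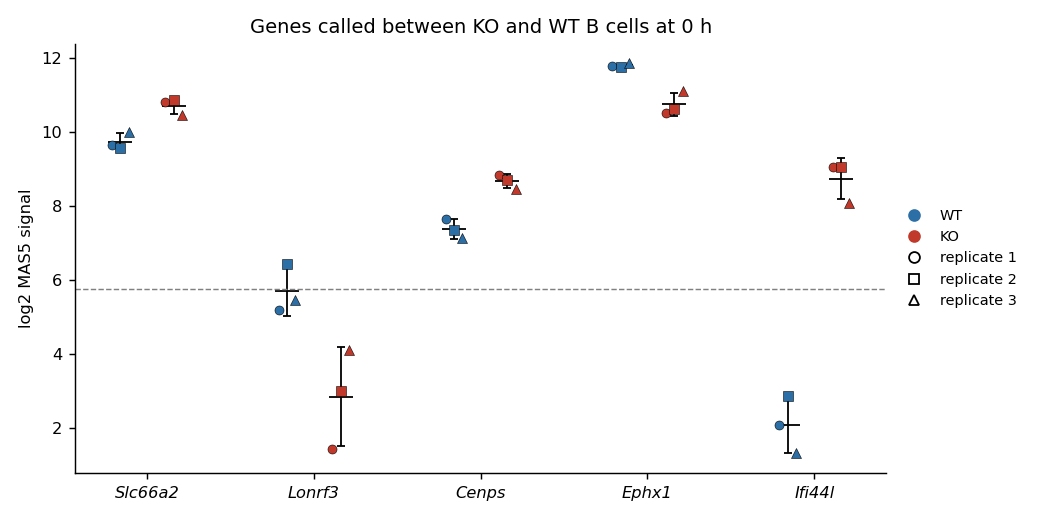
Log2 MAS5 signal of the 5 genes that passed at 0 h, by array (points, with a shape for each replicate number), with the mean and SD of each group of 3 arrays and the mean filter level of 5.77 as a dashed line. No gene's KO and WT arrays overlap, and the WT arrays of Ifi44l and all but 1 of the arrays of Lonrf3 lie under the filter level.

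Few genes passed between the genotypes at 0 h, and 3 arrays per group can leave smaller differences undetected. All arrays had the same mean signal of 500.01 after 2% was trimmed at each end, so an equal shift of all genes would not be seen. The equal means do not fix the median log2 signal of an array, which ran from 6.51 to 6.72 at 0 h. The median difference was 0.01 and 53.0% of genes were higher in KO arrays. The groups did not overlap for 1118 genes (7.81%), of which 608 were higher in all KO arrays (4.25%) and 510 lower (3.56%). An unadjusted p under 0.05 was reached by 500 genes (3.49%), 274 higher (1.91%) and 226 lower (1.58%), and differences over 1 in size by 7.61%. The median SE of a difference was 0.26. The smallest difference that passed was the 0.96 of Slc66a2. None of the 5 genes passed in each fit that left out 1 array, with 0 to 2 passes in 6 fits each, and all kept their direction in these fits.

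**Figure D2:**
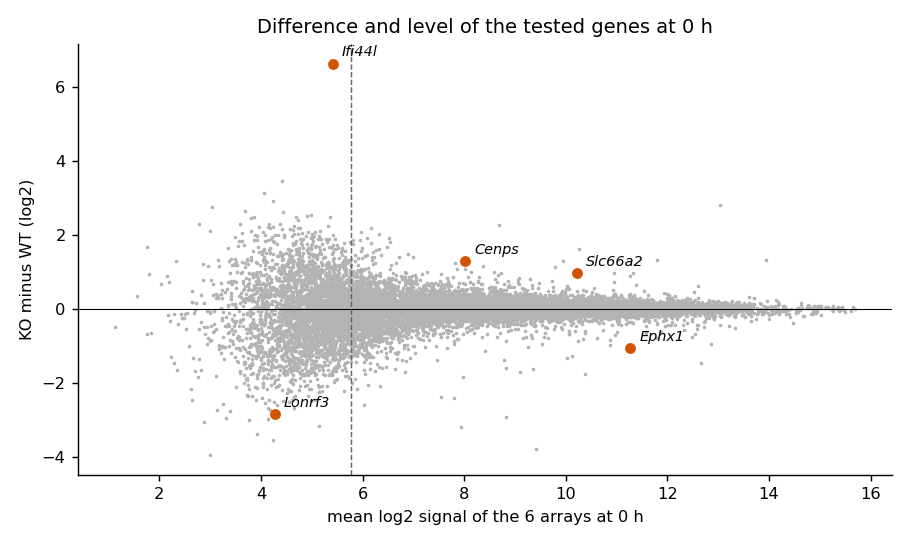
KO minus WT difference at 0 h (log2) against the mean log2 signal of the 6 arrays for the 14318 genes tested (grey points), with the 5 genes that passed in orange and the mean filter level of 5.77 as a dashed line. The differences spread widely at low signals and narrowly at high signals.

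When each probe set was tested on its own, 7 of 33486 passed (0.0209%), and 3.43% had an unadjusted p under 0.05. A probe set of Me2, the mitochondrial malic enzyme that turns malate into pyruvate, had the smallest adjusted p; this feature was chosen after its values were seen. Its log2 signals were 7.94, 7.99 and 7.98 in KO and 9.67, 9.87 and 9.77 in WT arrays. Each group varied by a small fraction of the distance between them, and the difference of -1.80 (SE 0.20) had a limma adjusted p of 0.000322. The same probe set passed at 3, 8 and 16 h, with differences of -1.38, -2.04 and -1.48. The 3 other Me2 probe sets differed by 0.21, 0.01 and -0.25 and did not pass. Me2 lies on chromosome 18 with Nfatc1, 44 genes away in RefSeq order. On that chromosome 338 genes were tested by their brightest probe set, of which Slc66a2 passed and 16 (4.73%) had an unadjusted p under 0.05, beside 3.49% of all genes.

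Twsg1 codes for twisted gastrulation, a secreted modulator of bone morphogenetic protein signals. Its brightest probe set had 8.16, 8.48 and 8.51 in KO and 9.18, 9.17 and 9.37 in WT arrays. The groups did not overlap, and the difference of -0.86 (SE 0.19) did not pass at 0 h (limma adjusted p 0.139). Another Twsg1 probe set had 5.79, 6.53 and 6.71 in KO and 8.08, 7.66 and 7.99 in WT arrays and passed among all probe sets (-1.56, limma adjusted p 0.0486). At 3, 8 and 16 h the gene was lower in KO than in WT arrays by 1.24, 1.26 and 1.04 on the log2 scale. It was thus lower in KO arrays at all 4 times, and its later differences passed.

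The genes nearest to the threshold were named by a rule: the 10 with the smallest p in each direction whose mean exceeded the filter level in both groups. Among the higher ones, S1pr3, a sphingosine phosphate receptor of marginal zone B cells, had 12.17, 11.98 and 11.30 in KO and 10.54, 10.69 and 11.31 in WT arrays. The groups overlapped through the third replicates, and the difference of 0.97 (SE 0.23) did not pass (limma adjusted p 0.219). Jchain, the joining chain of polymeric antibodies, had 12.82, 12.61 and 11.98 in KO and 10.96, 10.87 and 11.56 in WT arrays. Its groups did not overlap, and the difference of 1.34 (SE 0.39) did not pass at 0 h. Jchain did pass over 3, 8 and 16 h, with a mean difference of 1.67 (limma adjusted p 9.12e-05).

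Ighg3, an IgG3 heavy chain gene, differed by 1.14 (SE 0.32) at 0 h with all KO arrays above all WT arrays. It passed over the stimulated times (0.81, limma adjusted p 0.0215). Zfp982, a zinc finger gene, differed by 1.01 at 0 h and passed over the stimulated times as well (0.85, limma adjusted p 0.00178). Pde4d, a phosphodiesterase that breaks down cyclic AMP, differed by 1.08, and Atxn1, a nuclear repressor, by 0.98. Borcs7, a subunit of the lysosome-positioning BORC complex, differed by 0.52, Bzw2 by 0.70, Bcap29, a protein of the endoplasmic reticulum, by 0.34, and Obi1, a replication origin ubiquitin ligase, by 0.58. For Borcs7, Bzw2, Bcap29 and Obi1 the difference over the stimulated times was -0.10, 0.02, 0.02 and 0.05. None of these 10 genes passed at 0 h.

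Among the lower ones, Rasd1, a small GTPase that glucocorticoids induce, had 5.85, 7.22 and 8.07 in KO and 8.69, 9.59 and 8.40 in WT arrays. The groups did not overlap, and its difference was -1.85 (SE 0.40, limma adjusted p 0.139). Sgk1, a kinase acting downstream of PI3K, had 9.62, 10.88 and 10.63 in KO and 11.30, 11.80 and 10.97 in WT arrays. Sgk1 differed by -0.98 (SE 0.25) at 0 h, which did not pass (limma adjusted p 0.326). At 3, 8 and 16 h it was lower in KO than in WT arrays by 1.58, 1.56 and 1.52 on the log2 scale. The difference at 0 h less that over these times was 0.58, which did not pass. Without KO replicate 1 the difference of Sgk1 at 0 h was -0.60.

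Rilpl2, which helps place organelles, differed by -0.66, Fbxo4, an F-box subunit of a ubiquitin ligase, by -0.78, and Bmpr2, a receptor for bone morphogenetic proteins, by -1.19. Rilpl2 differed by -0.43 without KO replicate 1, and Fbxo4 by -0.49 without WT replicate 1. The sugar transporter Slc45a1 differed by -1.37 and Snapc5, a subunit of the complex that transcribes small nuclear RNAs, by -1.13. Of these, Rilpl2 and Bmpr2 passed over the stimulated times, with -0.40 and -0.81. KO replicate 1 was the lowest of the 6 arrays in 7 of the 10 lower genes and the highest in 6 of the 10 higher genes, which were chosen for their difference between the groups.

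Immediate early genes are switched on within minutes by receptor signals and also by handling of cells. Of 26 tested, 4 had an unadjusted p under 0.05, beside 3.49% of all genes, and none passed. KO arrays were lower for 23 and higher for 3, with a median of -0.43. The pattern rested on 1 array. The mean log2 signal over the 26 genes was 9.75 in KO replicate 1 and 11.59 and 11.65 in the other KO arrays, against 11.53, 11.65 and 11.45 in WT arrays. KO replicate 1 was the lowest of the 6 arrays for 22 of the 26 genes. Without KO replicate 1 the median was 0.18, with 18 genes higher and 8 lower, so the direction turned.

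Egr2, a zinc finger factor that restrains lymphocyte activation and a known NFAT target in T cells, was the member nearest to the threshold. Its log2 signals were 6.89, 9.02 and 8.86 in KO and 10.18, 10.10 and 9.59 in WT arrays. All 3 KO arrays were below all 3 WT arrays, and the difference of -1.70 (SE 0.35) had a limma adjusted p of 0.124. Without KO replicate 1 it was -1.01 (limma adjusted p 0.182), while without KO replicate 2 or 3 it passed, at -2.08 and -2.00 (limma adjusted p 0.0466 and 0.0321). Over 3, 8 and 16 h Egr2 was lower in KO than in WT arrays by 0.81 on the log2 scale (limma adjusted p 0.0396). Its promoter is the fourth of those printed.

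Nr4a2, an orphan nuclear receptor, had 2.83, 8.37 and 8.54 in KO and 9.04, 9.23 and 8.73 in WT arrays. These groups did not overlap either, but the difference was -2.42 with KO replicate 1 and -0.55 without it. Nr4a1 (Nur77), a usual reporter of B cell receptor signalling, had 10.22, 12.90 and 13.20 in KO and 12.76, 12.92 and 12.88 in WT arrays. Its difference was -0.75 with KO replicate 1 and 0.20 without it. Fos, a subunit of AP-1, had 13.52, 14.78 and 14.52 in KO and 14.71, 14.73 and 14.52 in WT arrays. KO replicates 2 and 3 of Fos were close to the WT arrays, and its difference without KO replicate 1 was 0.00 to 2 decimals.

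The early activation marker Cd69 had 10.64, 13.55 and 12.97 in KO and 13.38, 13.66 and 12.98 in WT arrays, with the same array standing apart. Nfkbiz and Pmaip1, members of other lists, were also lowest in KO replicate 1, but their lists were not. Of 15 NF-kB genes that array was the lowest for 4 and the highest for 4. The same counts held for the 15 genes of the BCL2 family and survival. Nfkbiz, an inducible NF-kB regulator, had 10.51, 12.11 and 11.59 in KO and 12.73, 12.35 and 11.50 in WT arrays. Pmaip1 (Noxa), a death-promoting BCL2 family member, had 8.05, 9.72 and 10.31 in KO and 11.02, 10.55 and 10.51 in WT arrays, with no overlap. Neither passed.

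**Figure D3:**
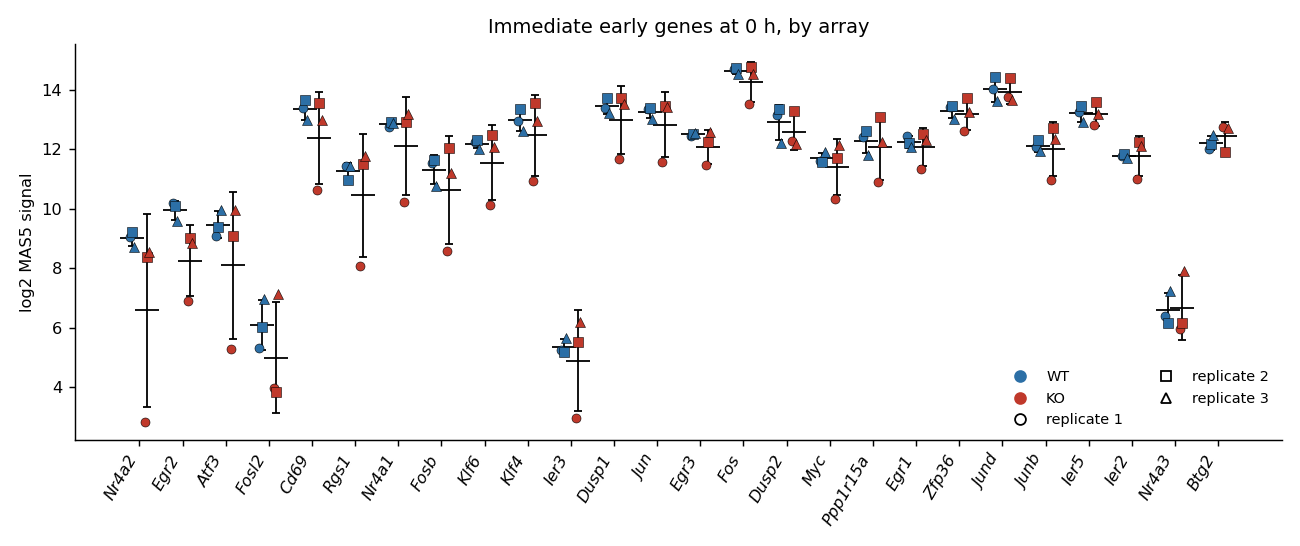
Log2 MAS5 signal at 0 h of the 26 immediate early genes tested, by array (points, with a shape for each replicate number), with the mean and SD of each group of 3 arrays, in order of the KO minus WT difference. KO replicate 1 (red circles) is the lowest array for 22 of the genes, and for Egr2 and Nr4a2 all KO arrays lie below all WT arrays.

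Marginal zone B cells line the border of the splenic white pulp and answer blood-borne antigens quickly. Of 10 markers tested, 9 were higher in KO arrays with a median of 0.38, and none passed. An unadjusted p under 0.05 was reached by 2, beside 3.49% of all genes. S1pr3, described with the genes nearest to the threshold, led the list. Cd9, a tetraspanin, had 9.29, 9.57 and 9.41 in KO and 8.81, 8.44 and 8.99 in WT arrays, with no overlap and a difference of 0.67 (SE 0.23). Cd36, a scavenger receptor, had 10.99, 11.12 and 11.45 in KO and 10.46, 10.46 and 11.09 in WT arrays. The groups of Cd36 overlapped, and it differed by 0.52 at 0 h. Cr2 (CD21), the complement receptor that is high on these cells, differed by 0.32, Dtx1, a Notch pathway gene, by 0.43, and Notch2, the receptor they depend on, by 0.23. Plxnd1, a plexin, differed by -0.44, with all KO arrays below all WT arrays. Of the 10 markers, 2 had all KO arrays above all WT arrays and 1 had them below, beside 4.25% and 3.56% of all genes. The median was 0.24 to 0.43 when any 1 array was left out.

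Of the 5 follicular B markers tested, those of the recirculating majority, 2 were higher and 3 lower. Cxcr5, the receptor that guides cells to follicles, differed by 0.23 and Fcer2a (CD23) by 0.17. The transcription factor Klf2 differed by -0.27, the homing receptor Ccr7 by -0.23 and the complement regulator Cd55 by -0.19. None passed, and the median of -0.19 was 0.02 without KO replicate 1 and 0.01 without WT replicate 3. Of 9 markers of B1 cells, which make natural antibody, 8 were lower, with a median of -0.12. An unadjusted p under 0.05 was reached by 3 of them, beside 3.49% of all genes. Apoe, apolipoprotein E, had 9.88, 8.76 and 9.79 in KO and 11.36, 9.996 and 10.91 in WT arrays and differed by -1.28 (SE 0.40). Its groups did not overlap. Ctla4, an inhibitory receptor of the CD28 family that B1 cells also transcribe, had 3.52, 3.62 and 5.62 in KO and 6.09, 6.17 and 6.78 in WT arrays, so that the KO values lay under the filter level. Cd5, the defining marker of B1a cells, differed by -0.83 with overlapping groups. Of 7 markers of transitional and precursor B cells, 6 were lower, with a median of -0.24 and none at an unadjusted p under 0.05. Cd93, which marks immature B cells, differed by -0.31.

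NFATc1 is known as a regulator of IL-10 and of other inhibitory molecules in lymphocytes. Of 16 immunosuppressive molecules tested at 0 h, 8 were higher and 8 lower, with a median of -0.01, and none passed. An unadjusted p under 0.05 was reached by 4 of them, 3 lower and 1 higher, beside 3.49% of all genes. All KO arrays lay below all WT arrays for 4 members (Ctla4, Il10, Pdcd1 and Tgfb2) and above them for 0, beside 3.56% and 4.25% of all genes. Of these 4, Pdcd1 and Tgfb2 were under the filter level in all 6 arrays, and Ctla4 in the 3 KO arrays. Il10 was under it in the 3 KO arrays and in WT replicate 3. Il10 had 5.14, 5.19 and 5.23 in KO and 6.40, 6.95 and 5.62 in WT arrays. The KO arrays were all lower, but they and WT replicate 3 were under the filter level. The difference of -1.14 (SE 0.37) did not pass (limma adjusted p 0.974). Pdcd1 (PD-1) had 3.09, 2.70 and 4.02 in KO and 4.63, 5.65 and 4.78 in WT arrays, all under the level. Havcr1 (TIM-1), a marker of IL-10 producing B cells, differed by 0.66, and Cd274 (PD-L1) by -0.01.

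Of 13 genes of plasma cells and germinal centre B cells, 9 were higher, with a median of 0.16, and none passed. Besides Jchain, Rgs13, a regulator of G protein signalling, had 9.96, 9.40 and 9.85 in KO and 9.10, 9.11 and 9.33 in WT arrays. Rgs13 did not overlap between the groups and differed by 0.56 (SE 0.23). Sdc1 (CD138), a plasma cell surface marker, had 7.75, 8.39 and 7.41 in KO and 9.13, 9.10 and 8.73 in WT arrays. It went the opposite way from Jchain, with a difference of -1.14 (SE 0.40). The plasma cell regulators Prdm1 and Xbp1 differed by 0.24 and 0.08.

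Genes of mitosis and proliferation leaned to higher values in KO arrays. Of 22 tested, 20 were higher, with a median of 0.35, beside 0.01 for all genes. None passed, and 3 had an unadjusted p under 0.05, beside 3.49% of all genes. All KO arrays lay above all WT arrays for 7 members, beside 4.25% of all genes. Rrm2, a ribonucleotide reductase subunit, had 10.36, 10.23 and 10.21 in KO and 10.003, 9.66 and 9.56 in WT arrays, without overlap. Cdk1, the kinase that drives entry into mitosis, had 9.22, 8.90 and 8.52 in KO and 8.47, 8.23 and 8.34 in WT arrays, also without overlap. Ccna2 (cyclin A2) differed by 0.60, Plk1 by 0.62 and Mki67 by 0.39, and Tpx2, a spindle assembly factor, by -0.26. WT replicate 3 was the lowest array for 16 of the 22 genes and KO replicate 1 the highest for 13. The median was 0.22 to 0.46 when any 1 array was left out. After anti-IgM it was 0.16, 0.08 and -0.09 at 3, 8 and 16 h.

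Of 16 quiescence genes, 13 were lower and none passed. The median was -0.13, and it was -0.02 without KO replicate 1. Btg1, an antiproliferative gene that is abundant in resting lymphocytes, had 14.96, 14.89 and 14.97 in KO and 15.18, 15.02 and 15.13 in WT arrays, a difference of -0.17 without overlap.

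The machinery that leads to NFAT and the identity of the cells showed no gene past the threshold. Of 17 B cell receptor signalling genes none had an unadjusted p under 0.05, and the median was 0.02. Among the signalling genes Blk, a Src family kinase, differed by 0.10 and Malt1, a protease of the NF-kB branch, by -0.22. The 14 genes of calcium stores and entry had a median of 0.02, with the sensor Stim1 at 0.23 and the channel Orai1 at -0.26. The 18 B cell transcription factors had a median of -0.02, with Pax5 at 0.26 and Spib at -0.16, and the 17 homing and adhesion genes had one of 0.00. Also here no gene reached an unadjusted p under 0.05. Of 12 inhibitory receptors and phosphatases, Cd5 alone did, with a list median of 0.00.

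Of 15 NF-kB subunits and feedback genes, 12 were lower, with a median of -0.06. Of 11 MHC class II genes 9 were higher, with a median of 0.08, where H2-Ab1 differed by 0.16 and Ciita, the master regulator of the class, by 0.22. The median of MHC class II was 0.75 at 16 h. Of 15 genes of the BCL2 family and survival, 10 were higher, with a median of 0.10. Bid, which links death receptors to mitochondria, had 11.42, 11.31 and 11.22 in KO and 11.07, 11.12 and 11.03 in WT arrays, a difference of 0.24 without overlap. Of 14 actin cytoskeleton and Sgk kinase genes, 3 had an unadjusted p under 0.05, beside 3.49% of all genes. They were Sgk1, Gsn (gelsolin, an actin severing protein) at 0.49 and Fscn1 (fascin, an actin bundling protein) at -0.71.

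Of 12 heat shock chaperones 10 were lower, with a median of -0.17. WT replicate 2 was the highest array for 10 of the 12, and without it the median was -0.02. Hspa1a, the inducible HSP70, had 8.13, 9.59 and 10.76 in KO and 9.94, 12.79 and 11.06 in WT arrays, with overlap.

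**Figure D4:**
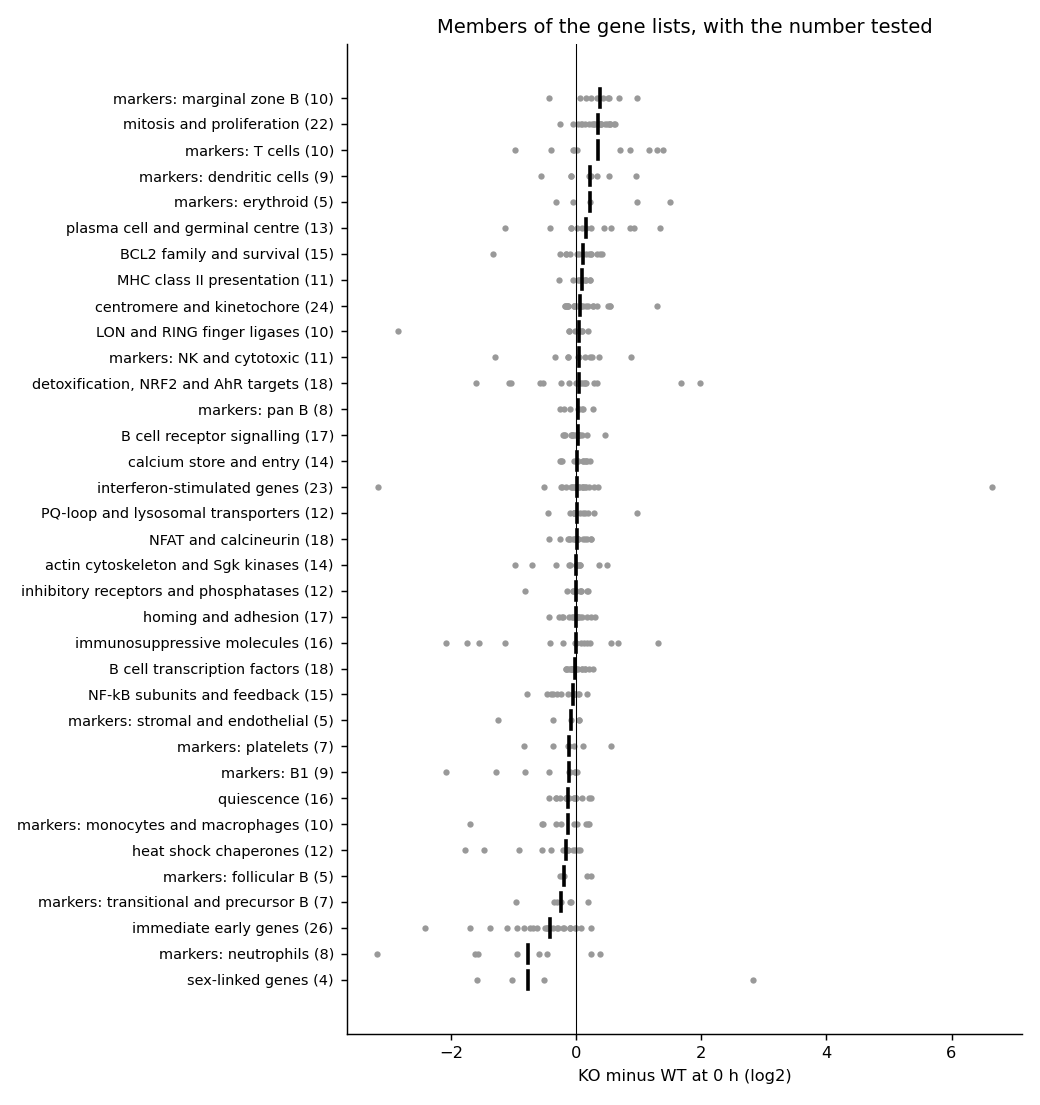
KO minus WT difference at 0 h (log2) of each tested member (grey points) of the 35 gene lists, with the number tested in brackets and the median as a black bar, in order of the median. The medians of the marginal zone and mitosis lists are 0.38 and 0.35, and those of immediate early genes and neutrophil markers are -0.43 and -0.77.

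Markers of other cells that bead enrichment can leave behind did not pass in any list. Of 8 neutrophil markers 6 were lower, with a median of -0.77. Their mean log2 signal was 5.43 in KO replicate 2 and 7.77 to 8.66 in the other 5 arrays, and without KO replicate 2 the median was -0.33. S100a9, a calcium-binding protein of granulocytes, had 8.65, 1.49 and 8.89 in KO and 9.25, 9.23 and 10.09 in WT arrays. KO replicate 2 was also the lowest array in the mean of NK cell markers, at 5.87 beside 6.53 to 7.42 in the others. Of 10 T cell markers 6 were higher, with a median of 0.35 that was 0.00 without KO replicate 1. Of 10 monocyte and macrophage markers 6 were lower, with a median of -0.14. Of 9 dendritic cell markers 6 were higher, with a median of 0.21 that was -0.13 without WT replicate 1. The 5 erythroid markers had a median of 0.21, in which Car2, carbonic anhydrase 2, differed by 0.97 (SE 0.30), and the 7 platelet and 5 stromal markers had medians of -0.11 and -0.09. Their part in the differences of other genes was not tested.

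Genes that differed between the genotypes after anti-IgM were then read at 0 h. The mean difference over 3, 8 and 16 h passed for 207 genes (1.45%), a count that was 95 with genotype and replicate sets as a random block, 91 with arrays scaled to their medians and 83 without the male-type arrays. KO arrays were the higher ones for 128 of these (0.894%) and the lower ones for 79 (0.552%). Of the 128 higher genes, 92 (71.9%) had a positive difference at 0 h, beside 53.0% of all genes. Cenps was the 1 of these that passed there. The 128 genes had a median of 0.10 at 0 h beside 0.56 after stimulation. Of the 79 lower genes, 62 (78.5%) had a negative difference at 0 h, beside 47.0% of all genes, and none passed. The 79 genes had a median of -0.21 at 0 h beside -0.67 after stimulation. The 207 genes were chosen for their difference after stimulation, so smaller medians at 0 h were favoured by that choice. Both results take their spread from the same 24 arrays, and no label tells if 1 mouse gave the arrays of 1 replicate number at several times. Deviations from the group means correlated by 0.02 to 0.374 (median 0.094) over 36 pairs of same-numbered arrays of a genotype at different times. The main fit treated these arrays as independent.

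The genes named from that set were the 8 highest and 8 lowest that kept 1 sign at 3, 8 and 16 h, with the brighter group above the filter level. Kcnq5, a voltage-gated potassium channel, had 7.12, 6.32 and 8.66 in KO and 10.54, 11.55 and 8.80 in WT arrays at 0 h. The groups did not overlap, but the third replicates were close, and the difference of -2.94 (SE 1.08) did not pass. Over the stimulated times it was -3.43 and passed. Jchain, Cd36 and Rgs13, given above, differed by 1.34, 0.52 and 0.56 at 0 h and by 1.67, 1.32 and 1.57 after stimulation.

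Actn1, the actin crosslinker alpha-actinin 1, had 6.39, 6.36 and 6.43 in KO and 6.37, 7.37 and 6.40 in WT arrays at 0 h. All but WT replicate 2 were alike, and the difference was -0.32, or 0.01 without that array. It was -2.19, -3.19 and -3.21 at 3, 8 and 16 h, each of which passed, and the test of 0 h against the stimulated times gave 2.54 (limma adjusted p 0.107). Tgfb3, a transforming growth factor, differed by -0.43 at 0 h and by 1.21 after stimulation. Tgfb3 was above the filter level in 1 KO array and 3 WT arrays at 0 h. Ccdc13, a coiled-coil gene, was above it in 1 KO array and 2 WT arrays at 0 h, and its WT means of 4.14, 2.48 and 3.39 at 3, 8 and 16 h were under it, so no difference is given for it.

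Ifng, interferon gamma, had 3.88, 5.76 and 6.88 in KO and 6.89, 6.53 and 6.998 in WT arrays at 0 h, with overlap and with 2 of the KO arrays under the filter level. Rgcc, a cell cycle regulator that responds to complement, had 7.20, 9.27 and 9.35 in KO and 8.95, 8.98 and 8.85 in WT arrays, with KO replicate 1 low again. Basp1 and Cyp27a1 (sterol 27-hydroxylase) differed by 0.66 and 0.40 at 0 h, and Rapgef3 (EPAC1, a cyclic AMP sensor) by 0.46, or -0.06 without WT replicate 1. Cdk3, a cyclin-dependent kinase, differed by -0.11, and Tacc2 and Pdcd1 stood under the filter level in all 6 arrays at 0 h.

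The difference between genotypes at 0 h was also tested against that over 3, 8 and 16 h for every gene. In limma 0 of 14318 genes passed (0.0%), and 480 (3.35%) had an unadjusted p under 0.05.

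**Figure D5:**
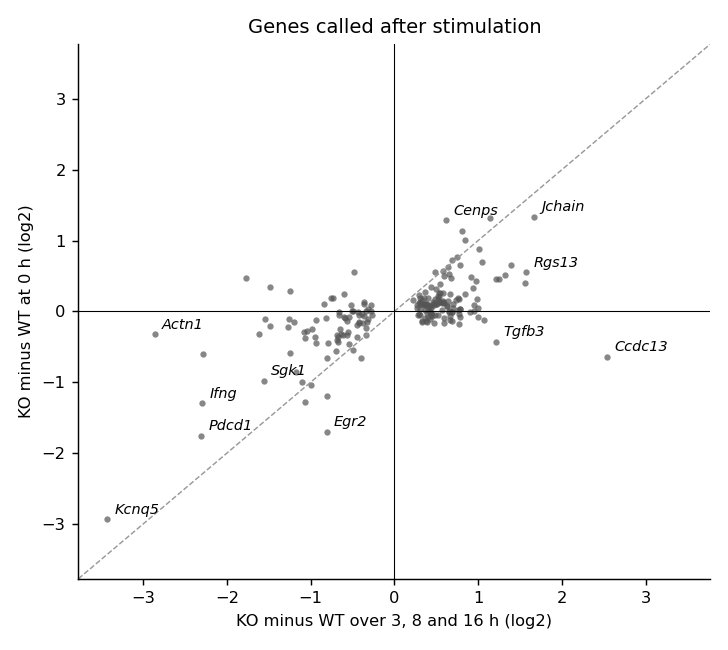
KO minus WT difference at 0 h (log2, vertical) against that over 3, 8 and 16 h (log2, horizontal) for the 207 genes that passed over the stimulated times, with the line of equal differences dashed. Most points lie nearer to 0 at 0 h, with medians of 0.10 and -0.21 for the higher and lower genes, and Cenps lies above the line. The genes were chosen for their difference over the stimulated times, which favours smaller values at 0 h.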

How the data were processed

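The authors deposited 1 table of log2 values for the 24 arrays. MAS5 produced them, per the submitters' processing notes; no other step is given in the sources used here. The values were used with the authors' scaling. Precision is set by 3 arrays per group. Of 45101 probe sets, 64 controls were dropped, 34945 had 1 gene symbol, 932 several, and 9160 none listed. A probe set was kept above the 40th percentile of its array in at least 3 arrays, and the brightest of a gene was used (14318 genes). No detection calls were used, so that percentile also serves as the floor.

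Tests came from limma 3.58.1 under R 4.3.3 (1 mean per group over 24 arrays, eBayes with trend, 16 residual and 6.79 prior degrees of freedom, two-sided), with Benjamini-Hochberg adjustment over all genes tested and calls under 0.05. The scripts were tested on simulated data of the same mean and spread. There 51 genes were changed 1.5-fold, 67 genes 2-fold and 82 genes 4-fold at 0 h. Of these, 11.8%, 58.2% and 76.8% were called, with 4 false calls. The noise was drawn independently for each gene and array, and many planted changes ease the Benjamini-Hochberg adjustment. These shares can therefore exceed the recovery in the real comparison. The 35 lists name 502 genes, and 436 passed the filter and were tested. The comparison, its lists and tests were chosen with earlier results of these data known. Named genes are those called, the 10 nearest to the threshold in each direction, the 8 highest and lowest after stimulation, all probe sets of Nfatc1, its 10 tested neighbours on each side, and list members with the smallest p or highest means. Outside this rule, Me2, a probe set with no symbol, and the list members Cd274, Fos, Irf7, Mki67, Mx1, Nfatc2, Nfatc3, Notch2, Plk1, Prdm1, Rcan1, Tpx2, Usp18 and Xbp1 were chosen after their values were seen. Alternatives were other scalings, filters, blocks, variance models and left-out arrays. Leaving out the male-type arrays, and leaving out arrays for the lists, were chosen after seeing the data. Gene names were updated through RefSeq (34741 probe sets matched), and the genome build behind the array annotation is not given in the sources used here.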

Additional observations from a re-analysis of the deposited data

Results flagged for a closer look

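A probe set without a gene symbol (1453752_at) lay outside the comparison of named genes and differed between the genotypes at 0 h. Its log2 signals were 8.74, 8.47 and 8.94 in KO and 10.87, 10.24 and 10.42 in WT arrays, with no overlap, and the difference of -1.79 (SE 0.23) passed among all probe sets (limma adjusted p 0.00104). At 3, 8 and 16 h it differed by -1.58, -1.77 and -1.86. The gene it measures is not named here.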

How the results depend on the processing

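The count of 5 genes called at 0 h was 2 with arrays scaled to their medians, 0 by eBayes without trend (518 at an unadjusted p under 0.05), 1 and 2 when only the 6 arrays at 0 h were fitted without and with the replicate block, and 3 without the male-type arrays, of which 0 were among the 5. It ranged from 2 to 12 over the fits that left out 1 array (2 without KO replicate 1, 3 without KO replicate 2, 12 without KO replicate 3, 3 without WT replicate 3), and was 4 to 7 in the other settings without a replicate block. No named gene reversed its sign while called. Over 3, 8 and 16 h the 207 genes became 91 with median scaling, 95 with genotype and replicate sets as a random block, and 83 without the male-type arrays, and 193 to 209 with 1 array at 0 h left out. The difference between 0 h and the stimulated times gave 2 genes with quantile normalization, 2 with median scaling, 4 with the random block, 3 without the male-type arrays and 0 to 7 with 1 array left out. At 0 h no Nfatc1 probe set passed under any setting run. The list members called, 5 in all, became 2 with median scaling, 1 in the fit of 6 arrays, 1 without the male-type arrays and 0 to 7 with 1 array left out. Median scaling moved the median difference of all genes from 0.01 to 0.08, so list medians near 0 change sign under it by construction. The causes were not tested.

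Same-numbered arrays at 0 h correlated in their deviations from the group means by 0.016, 0.08 and 0.106, so the numbers were not taken as pairs, although each array correlated best with its own number, a hint from the data and not the design. With the replicate block 10 genes passed at 0 h, the 5 included, 451 over the stimulated times and 6 in the difference between them.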
